A study of Mus musculus with 20 samples.

Results

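Slc11a2 and 9 other genes that carry, store, release or sense iron were followed on 20 arrays of mouse amygdala and hippocampus RNA. The genes were taken by name: a transcript cluster, the group of probes that the array summarizes as 1 value, was used where the platform annotation paired it with exactly 1 gene symbol and that symbol was Slc11a2, Tfrc, Trf, Steap2, Fth1, Ftl1, Slc40a1, Hamp, Aco1 or Ireb2. The 10 genes were found on 11 of 28853 transcript clusters, 10 of 19938 genes that the annotation names in this way, and Steap2 was the gene with a pair of clusters. A further 4 clusters share Ftl1 with the microRNA symbols Mir692-2 and Mir692-3 and were not used. Slc11a2 itself was selected on its difference between genotypes in the amygdala, so that difference is described here and not tested.

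The mice were males of 2 months on a C57BL/6 background. DKO mice lack both calcium-stimulated adenylyl cyclases, AC1 (Adcy1) and AC8 (Adcy8), from birth. They were littermates of AC8 rescue mice that carried the tetop-AC8 transgene alone, the CaMKII-tTA transgene alone (tTA under the forebrain promoter of CaMKII) or neither, from matings kept on doxycycline until weaning. WT mice were C57Bl/6 mice that were not littermates of the DKO mice, so loss of the cyclases cannot be told apart from origin, transgene or early doxycycline. RNA of 5 to 10 mice was pooled on each array, with 1 array for each region, genotype and time point: baseline (5 min before conditioned fear training, CF), 0 hr, 1 hr and 48 hr after a 5 min training session with 1 shock of 0.7 mA for 2 s, and 1 wk, when mice had just been tested for CF memory. Tissue came from punches of the amygdala and the hippocampus. Whether both regions of a time point came from the same mice is not stated in the sources used here.

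Iron reaches neurons mainly bound to transferrin (Trf) and is taken in through the transferrin receptor (Tfrc). It is reduced in endosomes by STEAP enzymes and crosses the endosomal membrane through the divalent metal transporter DMT1, the product of Slc11a2. Inside the cell it is used in heme and iron-sulfur clusters, stored in ferritin (heavy chain Fth1, light chain Ftl1) or exported by ferroportin (Slc40a1), which the peptide hormone hepcidin (Hamp) degrades. The iron regulatory proteins, encoded by Aco1 and Ireb2, bind RNA elements of several of these transcripts when iron is scarce. In the brain, oligodendrocytes and the choroid plexus are known as major sources of Trf, and oligodendrocytes are rich in ferritin.

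All values are log2 RMA values (a normalized log2 brightness), on which a difference of 1 is 2-fold. They compare arrays for 1 gene and not levels between genes. As a check of the labels, Adcy8 lay between 6.94 and 7.66 on the WT arrays and between 5.22 and 5.89 on the DKO arrays. Adcy1 lay between 7.97 and 9.53 on the WT arrays and between 7.51 and 7.80 on the DKO arrays, with no overlap within either region. Of the marker genes listed for each region, 10 of 12 amygdala markers were higher in the amygdala and 8 of 11 hippocampus markers were higher in the hippocampus. The amygdala DKO 48 hr array had the lowest value of the 10 amygdala arrays for 8 of 9 marker lists and for 6 of the 11 iron clusters. Of those lists, the erythrocyte list was measured by 1 of its 7 genes, Alas2, which is also in the wider list of iron genes below. The share of all clusters lowest on this array was not computed, so nothing is read from the 6 of 11.

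Slc11a2 was lower on DKO arrays than on WT arrays in both regions. In the WT amygdala it measured 7.34, 7.32, 7.40, 7.35 and 7.35 at baseline, 0 hr, 1 hr, 48 hr and 1 wk. In the DKO amygdala it measured 6.97, 6.91, 6.98, 6.98 and 6.94 at the same times. The genotypes did not overlap, and the gap between the lowest WT and the highest DKO array was 0.34. The SD was 0.03 in each genotype (n = 5 arrays). The mean difference was −0.39, a 1.31-fold lower value in DKO mice, and it ranged from −0.42 to −0.36 over the 5 time points. Its standard error of 0.06, like every standard error (SE) here, is limma's, which draws each cluster's variance toward that of all clusters. In the amygdala 0.551% of all transcript clusters had 5 DKO arrays below 5 WT arrays, and 0.312% had them above. Nothing is read from the gap, the SD or this count, since the contrast was used to pick the gene.

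The hippocampus arrays were not used to pick Slc11a2. There it measured 7.15, 7.30, 7.17, 7.30 and 7.38 in WT mice in the order of the time points. In DKO mice it measured 6.87, 7.06, 7.03, 6.99 and 7.14. The groups did not overlap, but only by a gap of 0.006 between the WT baseline array and the DKO 1 wk array, and at each of the 5 time points the DKO array was the lower one, by 0.14 to 0.31. A group of 5 DKO arrays below 5 WT arrays was found for 1.08% of all clusters, and above for 0.645%. The mean difference was −0.24 (SE 0.07, 95% interval −0.38 to −0.10), 1.18-fold. In limma's fit over all clusters it had an unadjusted p of 0.00241 and an adjusted p of 0.323, which is above the limit of 0.1 used for genotype, so the difference was not called. Of all clusters 0.118% were called in the hippocampus, 34 of 28853.

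**Figure D1:**
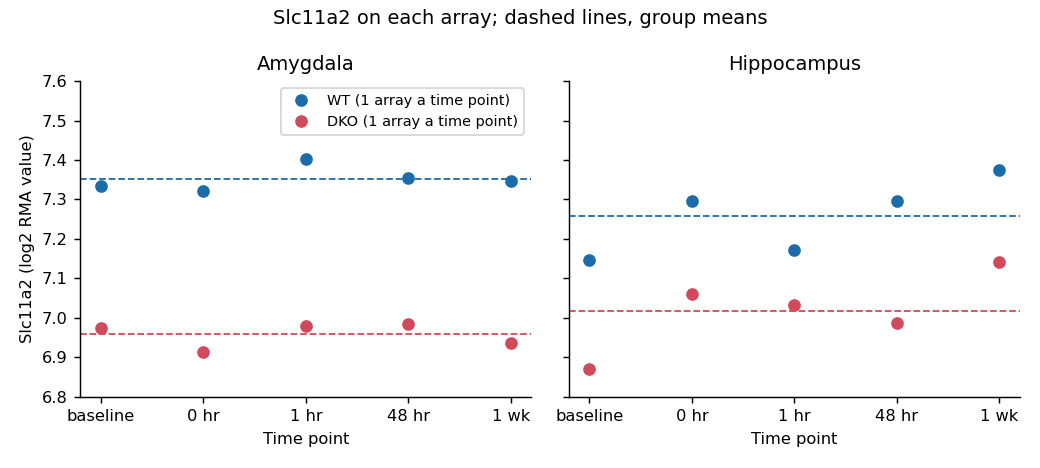
Slc11a2 (vertical axis, log2 RMA value) at the 5 time points (horizontal axis, not to scale in time) in the amygdala and the hippocampus, 1 point per array, WT in blue and DKO in red, with dashed lines at the group means. In the amygdala the genotypes are 0.34 apart at their closest, in the hippocampus 0.006.

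In order of mean level, the groups were the WT amygdala (7.35 ± 0.03, SD, n = 5 arrays), the WT hippocampus (7.26 ± 0.10), the DKO hippocampus (7.02 ± 0.10) and the DKO amygdala (6.96 ± 0.03). The ranges of the WT regions overlapped, as did those of the DKO regions, while the WT hippocampus and the DKO hippocampus did not overlap. Between regions Slc11a2 did not differ past the limit (amygdala minus hippocampus 0.02, SE 0.05, 95% interval −0.09 to 0.12, adjusted p = 0.863 by limma).

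Slc11a2 is the subject of a primer pair among those listed for the study's RT-PCR. The study states that its RT-PCR checks of the arrays used the individual RNA samples that went onto them. It also measured Slc11a2 by RT-PCR in mice lacking AC1 or AC8 alone and in AC8 rescue mice, which were on no array. It reports lower Slc11a2 in DKO mice, a similar reduction in both single knockouts, and no recovery in AC8 rescue mice. The pair is printed because it is the sequence by which the study measured the transcript by a second method. Both are given 5′ to 3′, with no part set in capitals, and the array probes were not matched to them.
Slc11a2 forward primer: gtatgtgtaccgctgagtgttcc
Slc11a2 reverse primer: agcctcagacctctgctaacac
They are 23 and 22 bases long. The array's transcript cluster 10432573 gives 1 value for the whole locus, so isoforms of Slc11a2, which differ in whether their 3′ end holds an iron-responsive element, cannot be separated.

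The other uptake genes showed no such gap between genotypes. For Tfrc the amygdala arrays read 9.71, 9.62, 9.55, 9.63 and 9.47 for WT mice, against 9.63, 9.52, 9.44, 9.26 and 9.52 for DKO mice, and the groups overlapped. In the hippocampus its difference was −0.02 (SE 0.06, 95% interval −0.15 to 0.11). Trf differed between genotypes by −0.05 (SE 0.12) in the amygdala and by −0.04 (SE 0.06, 95% interval −0.17 to 0.10) in the hippocampus. Steap2, a metalloreductase, is measured by cluster 10528008 (cluster 1) and cluster 10519484 (cluster 2). Their hippocampal differences were 0.08 (SE 0.14) and 0.06 (SE 0.10), and in the amygdala they were −0.16 (SE 0.14) and −0.002 (SE 0.12).

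Among the storage genes, Fth1 differed between genotypes by −0.12 (SE 0.08) in the amygdala and by −0.01 (SE 0.09, 95% interval −0.20 to 0.18) in the hippocampus. Ftl1 was −0.15 (SE 0.08) in the amygdala and 0.08 (SE 0.08, 95% interval −0.09 to 0.24) in the hippocampus. For the exporter Slc40a1 the values were −0.04 (SE 0.07) and −0.02 (SE 0.09). The iron regulatory protein genes Aco1 (−0.11, SE 0.08) and Ireb2 (−0.13, SE 0.10) had mean values below those of WT mice in the amygdala and hippocampal differences of 0.03 (SE 0.06) and 0.08 (SE 0.07), each with overlapping arrays. Without the baseline arrays the hippocampal differences were −0.001 for Aco1, 0.02 for Ireb2 and −0.10 for Slc40a1. In the hippocampus Ftl1 differed by 0.38 at baseline and by −0.18 to 0.14 at the later times. Steap2 cluster 1 differed by 0.70 at baseline and by −0.42 to 0.15 at the later times.

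Hamp, which in the body is made chiefly by the liver, had a mean value below which only 9.66% of all clusters lay. In the WT hippocampus it measured 4.85, 4.79, 4.25, 4.31 and 4.75, and in the DKO hippocampus 4.13, 4.72, 4.16, 4.25 and 4.52. The DKO array was lower at each of the 5 time points, by 0.72 at baseline and by 0.06 to 0.23 later, but the groups overlapped. The difference of −0.23 (SE 0.13, 95% interval −0.52 to 0.05) had an adjusted p of 0.498.

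Of the 11 clusters in the hippocampus, 0 passed the limit in limma and 1, Slc11a2, had an unadjusted p under 0.05, against 11.4% of all clusters. Without Slc11a2 the median hippocampal difference of the other 10 clusters was 0.01, and that of all clusters was −0.02. In the amygdala 9 of those 10 clusters were lower in DKO mice, with a median of −0.12 against −0.01 for all clusters. The share of all clusters lower in DKO mice was not computed. Without the amygdala DKO 48 hr array, 8 of 10 were lower and the median was −0.06. After a further quantile normalization of the arrays 8 of 10 were lower with a median of −0.03, and after median centring 9 of 10 with a median of −0.13. The part of that array in the amygdala values was not tested. The direction also varied over time in the amygdala. Steap2 cluster 2, at −0.002 among the 9, was higher in DKO mice at 4 of 5 time points. Fth1, Tfrc, Ireb2, Ftl1 and Aco1 were each lower at 4 of 5 and higher at 1 wk, by 0.015 to 0.077.

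**Figure D2:**
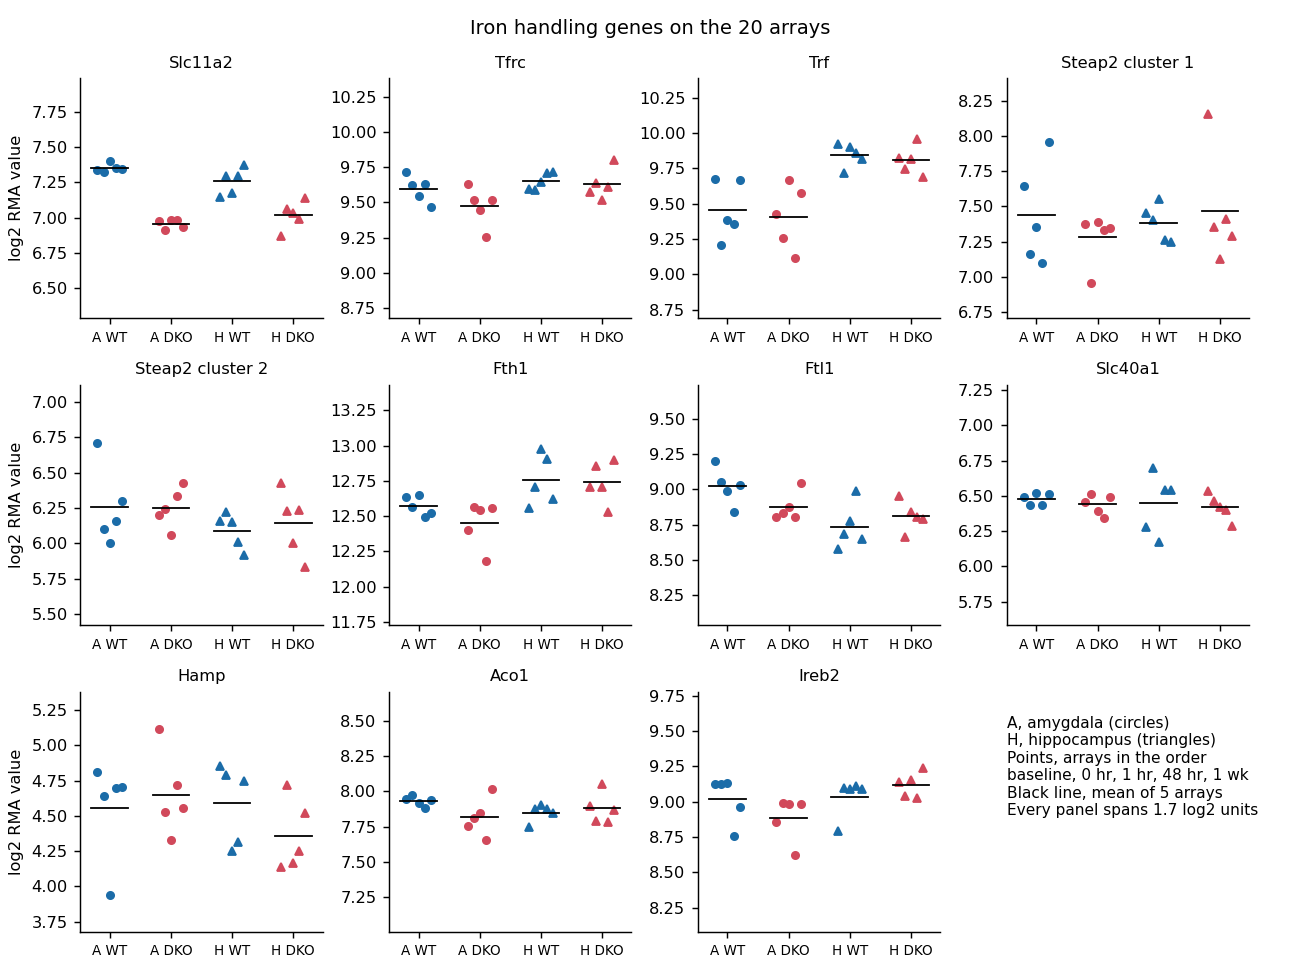
Log2 RMA value of the 11 transcript clusters (vertical axes, each spanning 1.7 log2 units) in the 4 groups of 5 arrays, amygdala as circles and hippocampus as triangles, with a black line at the mean. Slc11a2 is the cluster in which the WT and DKO points do not overlap in either region, and Trf is the one in which circles and triangles do not overlap.

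The regions differed in Trf and Fth1, both lower in the amygdala. Amygdala arrays read 9.68, 9.21, 9.38, 9.36 and 9.67 for Trf in WT mice, against 9.42, 9.25, 9.67, 9.12 and 9.58 in DKO mice. On hippocampus arrays Trf measured 9.92, 9.71, 9.90, 9.86 and 9.82 in WT mice and 9.83, 9.75, 9.82, 9.96 and 9.69 in DKO mice. All 10 amygdala arrays lay below all 10 hippocampus arrays, a separation found for 3.8% of all clusters in either direction. The mean difference, amygdala minus hippocampus, was −0.39 (SE 0.07, 95% interval −0.53 to −0.25), 1.31-fold, with an adjusted p of 0.000407 by limma with genotype and time point as a block. In pairs of the same genotype and time point it was lower in 10 of 10.

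Fth1 ranged from 12.18 to 12.65 with a median of 12.55 in the amygdala and from 12.53 to 12.97 with a median of 12.71 in the hippocampus. The arrays overlapped, and the amygdala array was the lower one in 9 of 10 pairs. The difference was −0.24 (SE 0.05, 95% interval −0.34 to −0.13), 1.18-fold, with an adjusted p of 0.00317 by limma. In WT mice alone it was −0.18 and not called (adjusted p = 0.251), and in DKO mice alone it was −0.29 (adjusted p = 0.00352); whether these differ was not tested. Ftl1, the light chain, was higher in the amygdala by 0.18 (SE 0.07, 95% interval 0.03 to 0.32), with an adjusted p of 0.101.

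These 2 calls among 11 clusters stand beside 17.3% of all clusters called between regions. Apart from Ftl1, the members that were not called had differences from −0.13 (Ireb2, SE 0.06, adjusted p = 0.219) to 0.13 (Steap2 cluster 2, SE 0.08, adjusted p = 0.285). Ireb2 passed the limit when the pair of WT baseline arrays was left out (−0.18, adjusted p = 0.0302), since the WT hippocampus read 8.79 at baseline and between 9.09 and 9.11 at the later times.

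**Figure D3:**
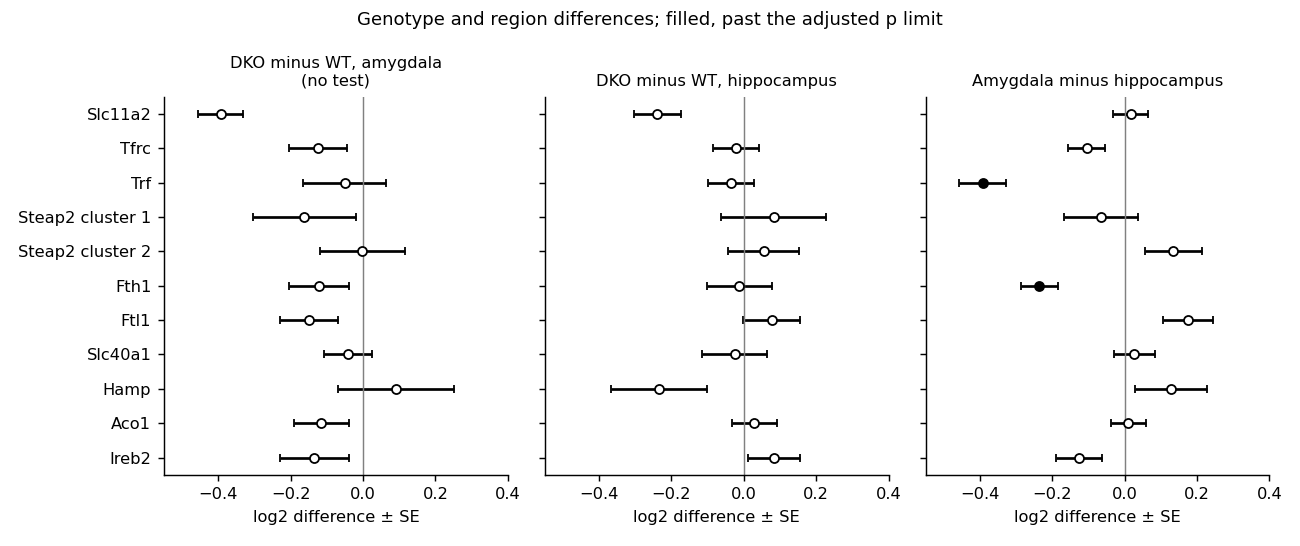
Log2 differences (horizontal axes) with standard errors as bars for DKO minus WT in the amygdala, DKO minus WT in the hippocampus, and amygdala minus hippocampus. Filled points passed the limit on the adjusted p, and the amygdala genotype differences were not tested. Slc11a2 is farthest from 0 in the genotype panels (−0.39 and −0.24), and Trf (−0.39) and Fth1 (−0.24) are the filled points between regions.

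Markers of myelinating oligodendrocytes moved the same way as Trf and Fth1 between regions. All 11 measured genes of the oligodendrocyte list, among them Mbp, Mog and Mag, had higher means in the hippocampus, with a median difference of −0.36. The mean of the list lay between 7.82 and 8.39 on the amygdala arrays and between 8.31 and 8.61 on the hippocampus arrays. All 8 endothelial markers were also higher in the hippocampus, with a median difference of −0.16. Other lists went the other way: 7 of 10 choroid plexus genes (median 0.077) and 8 of 9 microglia genes (0.065) were higher in the amygdala. The astrocyte list was mixed, with 4 genes higher in the amygdala and 5 in the hippocampus, as was the neuron list, with 6 and 4. In RNA of whole punches, a smaller number of cells of a type and less RNA per cell cannot be told apart. The part of these cells in the differences of Trf and Fth1 was not tested.

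**Figure D4:**
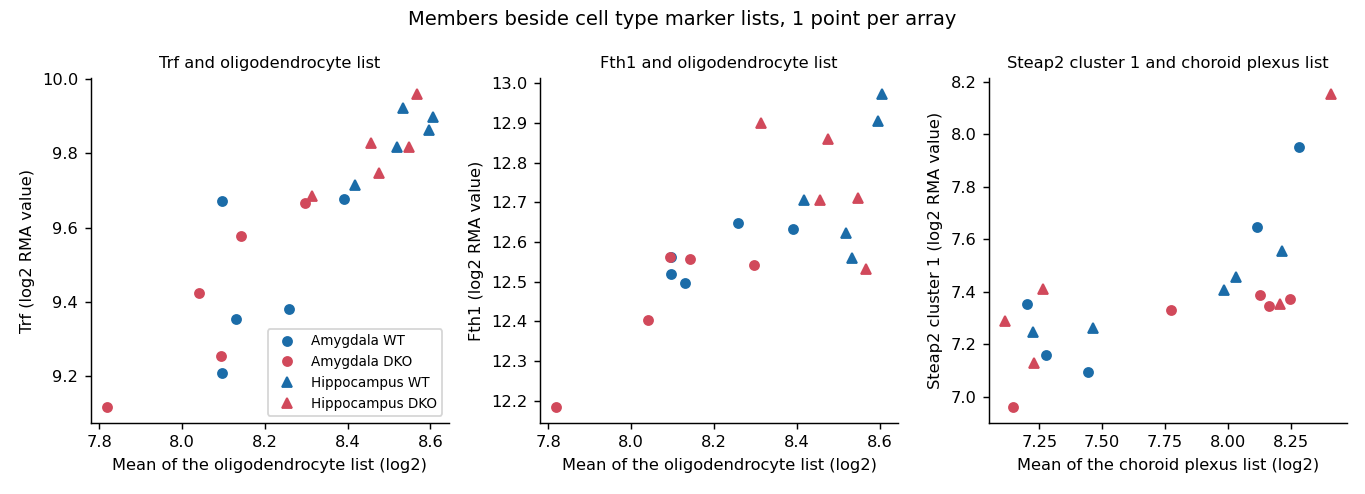
Trf and Fth1 (vertical axes, log2 RMA value) against the mean of the oligodendrocyte marker list, and Steap2 cluster 1 against the mean of the choroid plexus list (horizontal axes, log2), with 1 point per array, amygdala as circles, hippocampus as triangles, WT in blue and DKO in red. The amygdala DKO 48 hr array lies lowest for Trf (9.12), Fth1 (12.18) and the oligodendrocyte list (7.82), and Steap2 cluster 1 is highest (8.15) where the choroid plexus list is highest (8.41).

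After CF, limma called no member at any time, where the 4 combinations of region and genotype served as replicates of a time point. At 0 hr, 2 of 11 clusters had an unadjusted p under 0.05, against 2.58% of all clusters, and 0.00347% of all clusters were called. At 1 hr it was 2 of 11 against 6.16%, with 0.0243% called. The count was 1 of 11 against 3.59% at 48 hr, with 0.0% called, and 1 of 11 against 3.12% at 1 wk, with 0.00347% called.

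Slc11a2 differed from baseline by 0.07 (SE 0.07) at 0 hr and by 0.06 at 1 hr. At 48 hr the difference was 0.07, and at 1 wk it was 0.12. The interval at 1 wk ran from −0.02 to 0.26. In each hippocampal genotype the 1 wk array was the highest of the 5 and the baseline array the lowest.

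The smallest unadjusted p among the members belonged to Hamp at 1 hr. Only 9.66% of all clusters had a mean value below that of Hamp, and no detection call was used. From baseline to 1 hr it went from 4.81 to 3.94 in the WT amygdala, in the DKO amygdala from 5.12 to 4.33, and from 4.85 to 4.25 in the WT hippocampus. In the DKO hippocampus, where the baseline was the lowest of the 4 groups, it went from 4.13 to 4.16. The mean change was −0.56 (SE 0.14, 95% interval −0.85 to −0.27) with an unadjusted p of 0.000695 and an adjusted p of 0.389.

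Steap2 cluster 1 was lower than at baseline in 4 of 4 groups at 0 hr (−0.44, SE 0.16, unadjusted p = 0.0127) and at 48 hr (−0.38, SE 0.16, unadjusted p = 0.0265), with an adjusted p of 1.0 at each. It was highest on the DKO hippocampus baseline array (8.15), the WT amygdala 1 wk array (7.95) and the WT amygdala baseline array (7.65). Those arrays also read high for the choroid plexus markers (list means of 8.41, 8.28 and 8.12), whose list mean ranged from 7.12 to 8.41 over all 20 arrays. On 5 other arrays the list mean was as high (8.13 to 8.25) while Steap2 cluster 1 read between 7.35 and 7.55. Steap2 cluster 2 was 1.25-fold below baseline at 1 hr (−0.32, SE 0.12, unadjusted p = 0.0142, adjusted p = 0.777) and its highest array was the WT amygdala baseline (6.71). Trf at 0 hr was lower in 4 of 4 groups (−0.23, SE 0.10, unadjusted p = 0.0345, adjusted p = 1.0), most in the WT amygdala, from 9.68 to 9.21, where the choroid plexus list went from 8.12 to 7.28. In the DKO amygdala the list went from 8.25 to 7.14 and the difference in Trf was −0.17, and in the WT hippocampus the list went from 8.03 to 7.99 and the difference in Trf was −0.21. In the DKO hippocampus the list went from 8.41 to 8.21 and the difference in Trf was −0.08. The part of choroid plexus tissue in these values was not tested.

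Differences of these changes between genotypes or between regions were tested as interaction terms in 88 tests of the 11 clusters. None passed an adjusted p of 0.05 in limma (lowest 0.403), nor did any of the 28853 clusters. An unadjusted p under 0.05 was found in 5 of the 88, all between regions. Over all clusters it was found in 6.13% of the same tests, but the kinds of term differed. Between regions it was found for 335, 291, 1961 and 623 of 28853 clusters in the order of the time points. Between genotypes the counts were 1472, 554, 3767 and 5152. The 6.13% is therefore not the share for the region terms alone.

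A wider list of 74 iron genes on 81 clusters was read in the same fits. In the hippocampal genotype comparison 0 of 81 passed the limit in limma (0.118% of all clusters did) and 11 had an unadjusted p under 0.05, a share near the 11.4% of all clusters. The lowest p belonged to Cp (ceruloplasmin, the ferroxidase that works with ferroportin), higher in DKO mice by 0.38 (SE 0.10, unadjusted p = 0.00227, adjusted p = 0.323). Its WT and DKO arrays overlapped in both regions, and its amygdala difference was 0.03 (SE 0.11). The median difference over the 81 clusters was 0.01, against −0.02 for all clusters. In 1 cluster, Isca2 of iron-sulfur cluster assembly, the 5 DKO arrays lay above the 5 WT arrays (0.16), while its amygdala difference was −0.19 with overlap. In the amygdala this was so of 1 cluster of Iba57 of the same process (0.31), whose other cluster differed by −0.001 with overlap. In neither region did any of the 81 have all DKO arrays below all WT arrays. Of all clusters, 0.645% in the hippocampus and 0.312% in the amygdala had all DKO arrays above all WT arrays. The shares below were 1.08% and 0.551%.

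Between regions 18 of the 81 clusters passed the limit, 9 higher and 9 lower in the amygdala, beside 17.3% of all clusters called. The median was −0.01 against 0.02 for all clusters. In the list of uptake and release, 3 of 16 clusters were higher and 3 lower in the amygdala. The siderophore receptor Slc22a17 was higher in the amygdala (0.31, SE 0.04, adjusted p = 8.55e-05) and Cp was lower (−0.56, SE 0.08, adjusted p = 9.39e-05). Of the genes that act on hepcidin, 2 of 15 clusters were higher and 3 lower, with the BMP ligand Bmp2 higher (0.62, SE 0.09, adjusted p = 0.000168) and the BMP receptor Acvr1 lower (−0.67, SE 0.06, adjusted p = 9.81e-07). Nedd4l, a ubiquitin ligase of the family that marks DMT1 for degradation, was the 1 call among 12 clusters of regulators of iron regulatory proteins, ferritin and Slc11a2 (−0.55, SE 0.07, adjusted p = 2.86e-05). All 10 amygdala arrays lay below all 10 hippocampus arrays for both Acvr1 and Nedd4l, where 3.8% of all clusters had no overlap in either direction. Heme genes gave 2 calls in each direction among 19 clusters. Mitochondrial iron genes gave 2 among 19, both higher in the amygdala, with the mitochondrial iron importer Slc25a37 at 0.35 (SE 0.07, adjusted p = 0.00109). Against baseline limma called 0 of the 81 clusters at any time, and 0, 4, 5 and 3 had an unadjusted p under 0.05 in the order of the time points, beside 2.58%, 6.16%, 3.59% and 3.12% of all clusters.

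The genes whose values ran most like those of Slc11a2 were sought by Pearson's r over the 20 arrays after the mean of each region was subtracted. They were Ift27, a small GTPase of intraflagellar transport (r = 0.923), the reductase Cyb5r3 (0.882), Adcy8 (0.877), the vascular scaffold gene Ccm2 (0.867) and Gm10590 (0.861). For a gene with several clusters the highest r was taken, and Gm10590 has 4. The WT and DKO arrays of Ccm2 overlapped in the hippocampus, where it differed by −0.23. The study's own list of amygdala genotype differences, which holds Slc11a2, also holds Cyb5r3, Adcy8 and Ccm2. The arrays share the genotype split that chose Slc11a2, so r is a description. Ift27, Cyb5r3 and Adcy8 lie on chromosome 15 with Slc11a2 in the RefSeq annotation of GRCm38.p6, at 22.2, 17.2 and 35.7 Mb from it, and Ccm2 lies on chromosome 11 with Adcy1. No other member lies on either chromosome. The part of chromosomal position in these values was not tested. The r of the other members with Slc11a2 ran from −0.26 (Steap2 cluster 2) to 0.46 (Tfrc).

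The genes around Slc11a2 did not show its gap between genotypes in the amygdala. Of the 5 measured genes on each side of it, 10 of 10 had overlapping WT and DKO arrays there, with differences from −0.23 (Letmd1) to 0.11 (2310068J16Rik). Over all clusters, 0.551% had all DKO arrays below all WT arrays in the amygdala and 0.312% above, so overlap was the usual case. In the hippocampus Letmd1, which starts 0.075 Mb away, was the 1 neighbour whose 5 DKO arrays lay below the 5 WT arrays (means 7.72 and 7.92, difference −0.20). That separation was found for 1.08% of all clusters in the hippocampus. Mettl7a1, the nearest measured gene on the other side, differed by −0.22 in the amygdala and by −0.04 in the hippocampus, with overlap in both.

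**Figure D5:**
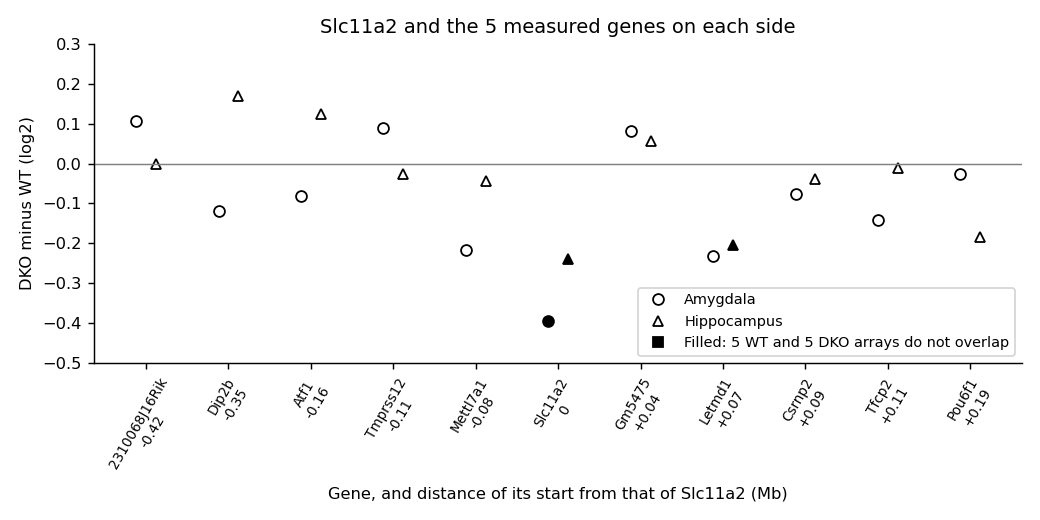
DKO minus WT difference (vertical axis, log2) of Slc11a2 and the 5 measured genes on each side of it in RefSeq gene order (horizontal axis, with the distance of each start from that of Slc11a2 in Mb), amygdala as circles and hippocampus as triangles, filled where the 5 WT and 5 DKO arrays do not overlap. Slc11a2 is filled in both regions (−0.39 and −0.24), and Letmd1 in the hippocampus (−0.20).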

How the data were processed

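The authors hybridized pooled RNA to Affymetrix Mouse Gene 1.0 ST arrays and normalized them by RMA in Affymetrix's Expression Console (version not stated in the sources used here). The deposited log2 values per transcript cluster were used as given, with no detection call and no array or cluster left out. Gene names came from the platform annotation.

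limma 3.58.1 (R 4.3.3) was fitted over all 28853 clusters and p-values were adjusted over these by Benjamini-Hochberg. Genotype was tested in the hippocampus with the 5 time points as replicates (limit 0.1, from the study's methods). Regions, blocked by genotype and time point, and each time against baseline, blocked by group, used 0.05. P-values measure only the spread between these arrays of pooled mice. Named beyond the 10 members were at most 6 called further iron genes per comparison by p, up to 4 per region without overlap, the 5 genes most like Slc11a2 and its 5 neighbours on each side; Cp in the hippocampus was named after its value was seen. Members, lists and tests were chosen with earlier results of these data known. Alternatives were other normalizations, a filter on level, other variance settings and blocks, subsets of arrays and each array left out. The interaction terms and the amygdala medians under other settings were added after the data were seen.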

Additional observations from a re-analysis of the deposited data

Results flagged for a closer look

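Each of the 44 sets of 5 arrays (11 clusters in 4 groups) was searched for an array far from the other 4. A set was marked where the gap to the nearest array was over 0.71 of the whole range, which chance gives in about 1 of 20 sets, and 4 sets were marked. Ireb2 read 8.79 on the WT hippocampus baseline array, with the next array at 9.09. Steap2 cluster 1 read 8.15 on the DKO hippocampus baseline array, with the next at 7.41, and that array had the highest choroid plexus list mean of the 20 (8.41). Steap2 cluster 1 also read 6.96 on the DKO amygdala 0 hr array, with the next at 7.33, where the choroid plexus list had its lowest amygdala value (7.14). Hamp read 3.94 on the WT amygdala 1 hr array, with the next at 4.64.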

How the results depend on the processing

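The 0 calls among the members and among the further iron genes in the hippocampal genotype comparison and at each time remained 0 under every alternative run, including each array left out in turn. Slc11a2 in the hippocampus stayed between −0.27 and −0.19 and uncalled, with adjusted p from 0.171 to 0.612. Its amygdala value stayed between −0.40 and −0.38 with each array left out. With the time point as a replicate block the hippocampal adjusted p of Slc11a2 was 0.292, and the block changed no call of a member; time points share a label, not mice. Trf kept its region call in all 27 alternatives (−0.42 to −0.34). Fth1 kept it in 26 of 27, losing it in WT arrays alone. WT arrays alone left 1 member called between regions instead of 2, and 8 further iron clusters instead of 18. DKO arrays alone, in a fit of the same size, called 3 members. Of all clusters, 2201 were called in WT arrays alone and 7919 in DKO arrays alone, against 4978 in the main fit. Both fits hold fewer arrays than the main fit, and the cause of these differences was not tested. Ftl1 passed the region limit after a further quantile normalization (adjusted p = 0.00825) and without pairing (0.0457), and Ireb2 did in DKO arrays alone (0.0196) and without the WT baseline pair (0.0302). The region value of Slc11a2, 0.02, was −0.01 after quantile normalization and −0.005 after median centring. The number of arrays limits the precision, and no measure of signal over background was used here.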
